A study of Mus musculus with 22 samples.

Results

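Cytosolic ribosomal protein genes were followed in mouse kidney cortex, where 83 of the 16556 genes in the count table carry the name of a protein of the large or small ribosomal subunit. Members were chosen by name alone (Rpl or Rps followed by a digit, Rplp0 to Rplp2, and Rpsa), leaving out pseudogenes, the Rps6k kinases and Rps19bp1. Of the 83, 46 belong to the large subunit, 31 to the small subunit, and 6 are paralogs (Rpl3l, Rpl7l1, Rpl22l1, Rpl36al, Rps27l and Rps27rt). All 83 passed the filter on low counts that left 15064 genes for testing. A further 4 rows that the table leaves without a name have matching names in GENCODE M21 and lie outside the rule.

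The study deleted carnitine acetyltransferase, encoded by Crat, with a Cre recombinase under the Ggt promoter, which acts in proximal tubular cells, in male C57BL/6J mice. The 22 libraries form 6 groups. At 12 months of age, with LFD in the title, there were 3 Pt-CrAT (deleted) and 3 fl/fl (floxed) animals. At 15 months on chow there were 3 labelled Pt-CrAT and 3 labelled fl/fl, and at 24 months on chow 5 Pt-CrAT and 5 fl/fl. All animals carry the strain C57BL/6J label, and other cells of the cortex keep Crat in the deleted animals. The kit reads a tag near the 3′ end of each messenger. Diet and age change together between 12 months and the later settings and cannot be told apart.

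Crat itself was used to check the labels. It stood at 42.4 to 81.1 CPM (counts relative to library size, with the sizes scaled by TMM factors) in Pt-CrAT and 54.0 to 98.1 CPM in fl/fl at 12 months. Those ranges overlapped, and the difference did not pass edgeR's test (log2 fold change -0.33, SE 0.27, adjusted p = 0.41). The 12-month labels are therefore not settled by Crat. At 15 months it ran against the labels, with 63.1 to 72.6 CPM in libraries labelled Pt-CrAT and 34.3 to 60.02 CPM in those labelled fl/fl. Those ranges did not overlap, but the difference did not pass (log2 fold change 0.61, SE 0.275, edgeR adjusted p = 0.581). At 24 months it stood at 28.4 to 38.9 CPM in Pt-CrAT and 43.5 to 111.5 CPM in fl/fl. The ranges were again apart, and the difference again did not pass (log2 fold change -1.04, SE 0.21, edgeR adjusted p = 0.177). Totals ran between 12175804 and 17447367 counts in 21 of the libraries and reached 53157575 in CrAT12MLFD345, with 372987 to 1998514 of each library's counts in the 83 members. All 12 proximal tubule markers had counts in every library. A few libraries stand apart: CrAT24Mchow123 and CrAT24Mchow136 had a summed proximal tubule marker level of 12140 and 9984 CPM, against 30340 CPM or more in every other library. Kap, which is among the 12 markers, makes up most of that sum in the other libraries, averaging 29290 CPM in fl/fl at 24 months. The low sums therefore largely follow Kap and do not give the level of the other markers. At 12 months many calls were lost when CrAT12MLFD328, CrAT12MLFD337 or Wt12MLFD326 was left out.

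The cytosolic ribosome translates messenger RNA into protein. Its small subunit decodes the messenger, and its large subunit joins amino acids and feeds the chain through an exit tunnel. Nearly every subunit protein is made from a messenger that opens with a terminal oligopyrimidine tract (TOP), a C followed by a run of C and T bases, through which mTOR and LARP1 set how strongly these messengers are translated. Several ribosomal proteins also have duties away from the ribosome, such as Rpl5 and Rpl11, which bind the p53 ligase Mdm2 when ribosome assembly fails. In the proximal tubule, translation supplies a dense set of transporters and enzymes.

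The starts of 7 members that the results below turn on are shown because the tract is the shared mark of these messengers. Each line runs 5′ to 3′ on the transcribed strand over 30 bases, 20 before and 10 from the annotated start, from RefSeq on GRCm38.p6. Capitals mark the longest run of C and T that opens with C.
Rpl7a: ccacaattCCCTCTTCTTTCTTTCTCCagc
Rpl35: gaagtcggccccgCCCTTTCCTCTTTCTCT
Rps6: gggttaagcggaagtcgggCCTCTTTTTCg
Rps27l: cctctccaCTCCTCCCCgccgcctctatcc
Rpl13a: gataagaaaccctgcgacaagaCCTCCTCC
Rps15: gCCCTCCCggcagagctcgcgataactgcg
Rps3a1: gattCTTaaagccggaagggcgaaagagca
The windows lie at chr2:26910787-26910816 (plus strand, Rpl7a), chr2:39005122-39005151 (minus, Rpl35), chr4:86857358-86857387 (minus, Rps6), chr9:66946066-66946095 (plus, Rps27l), chr7:45128736-45128765 (minus, Rpl13a), chr10:80292411-80292440 (plus, Rps15) and chr3:86142659-86142688 (minus, Rps3a1). The run was 19 bases long in Rpl7a, 17 in Rpl35 and 3 in Rps3a1. In Rps27l, Rps15 and Rps3a1 it lies wholly before the annotated start, outside the messenger as annotated. The RefSeq start used for Rpl35 lies 493 bases from the GENCODE start and that of Rps15 22 bases from it, so a short run says only that these letters are not in this window.

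RefSeq promoters were matched for 63 of the 83 members. A run of 8 or more C and T bases opening with C, sought on the transcribed strand in the same 30-base window, was present in 25 of the 63 (39.7%), against 9.7% of all 32851 promoters in the table. The motif CCGGAAG, sought on both strands over 300 bases (250 before and 50 after the start), was present in 24 of the 63 (38.1%), against 8.9% of all promoters. Its reverse complement CTTCCGG can overlap the pyrimidine run. The runs counted include some that lie wholly before the annotated start, as in Rpl5, Rpl39 and Rps25. These matches describe the promoters and are neither shown binding sites nor tied here to any difference between groups.

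The members made up 3.06% to 5.42% of all counts in a library. At 12 months they took 3.85%, 4.03% and 3.76% in Pt-CrAT libraries and 3.06%, 3.71% and 3.57% in fl/fl libraries, so that the groups did not overlap. The means were 3.88% ± 0.135 in Pt-CrAT and 3.45% ± 0.343 in fl/fl (SD, n = 3 each). At 15 months the means were 3.37% ± 0.179 in libraries labelled Pt-CrAT and 3.58% ± 0.35 in those labelled fl/fl (SD, n = 3 each), and the ranges overlapped. At 24 months they were 4.38% ± 0.751 in Pt-CrAT and 3.97% ± 0.054 in fl/fl (SD, n = 5 each). The 5 fl/fl libraries of that age lay between 3.89% and 4.02%.

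The wide spread of the 24-month Pt-CrAT group lay in the libraries that stand apart. CrAT24Mchow123 held 4.92% and CrAT24Mchow136 5.42%, while the other Pt-CrAT libraries held 3.75%, 3.78% and 4.02%. Kap, an abundant androgen-dependent transcript of the proximal tubule, is also counted in the marker sum above. In the same 2 libraries it took 0.531% and 0.342% of the counts, against 2.13% to 3.41% in the other 8 libraries of that age. Its part in the share was not tested. As a share of the TMM-scaled library size the 24-month means were 3.88% ± 0.497 in Pt-CrAT and 3.84% ± 0.0988 in fl/fl. On that scale the 12-month means were 4.47% ± 0.312 in Pt-CrAT and 3.66% ± 0.586 in fl/fl. In bulk cortex, fewer cells of a type and less RNA per cell cannot be told apart.

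**Figure D1:**
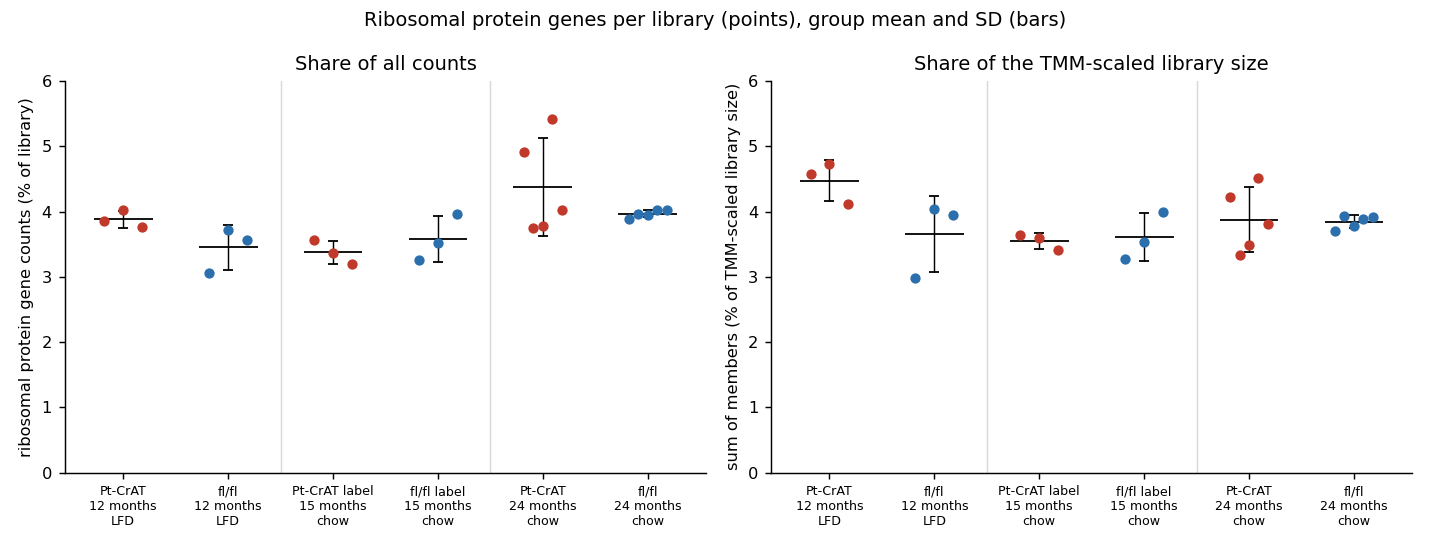
Counts of the 83 ribosomal protein genes in each of 22 libraries, as a percent of all counts (left) and of the TMM-scaled library size (right); points are libraries, bars the group mean and SD. CrAT24Mchow123 (4.92%) and CrAT24Mchow136 (5.42%) lie above every other library on the left.

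The tag counts of single members spanned a wide range. These are counts assigned to a gene by 3′ tags, not divided by transcript length. Over the 22 libraries, Rplp1, a stalk protein that helps recruit elongation factors, averaged 2942 CPM, and Rps25 averaged 2235 CPM. Rps6, the small-subunit protein phosphorylated by the S6 kinases, averaged 1.183 CPM. Of the 83 members, 81 share at least 1 stretch of 50 transcript bases with a pseudogene in GENCODE M21, with a median of 8 pseudogenes and 120 for Rpl7a. How reads that match several places were counted was not given in the sources used here. Levels of single members are therefore uncertain. The Spearman correlation over the 83 genes between the number of such pseudogenes and the mean level was -0.208, a description across genes that are not independent.

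The members differed in how much they varied between animals of the same group. Rpl7a, Rps23, Rpl35a and Rps16 had the largest within-group SD of log2 CPM (0.83, 0.74, 0.69 and 0.59) among members with a mean of at least 5 CPM. Rps10, Rpsa, Rpl22 and Rpl19 had the smallest (0.11, 0.11, 0.12 and 0.13). Rpsa doubles as a laminin receptor, and Rps23 sits at the decoding centre.

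Rpl7a, a large-subunit protein, stood at 36.0, 33.6 and 71.8 CPM in Pt-CrAT and 228.0, 63.2 and 57.3 CPM in fl/fl at 12 months. At 24 months it stood at 88.5, 136.9, 89.1, 196.1 and 72.1 CPM in Pt-CrAT and 133.2, 17.0, 63.2, 48.4 and 85.4 CPM in fl/fl. It was highest in Wt12MLFD326 and lowest in Wt24Mchow154, both fl/fl, and the groups overlapped at both ages.

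Rps23 ran between 13.3 CPM in CrAT15Mchow185 and 120.0 CPM in CrAT24Mchow136. The 4 most variable members moved together: after centring on group means, the Pearson correlations among them over 22 libraries lay between 0.875 (Rpl7a with Rps23) and 0.965 (Rpl35a with Rps16). The libraries share preparation and depth, and no p is attached to these values. By contrast Rps10 stayed between 505.6 and 772.0 CPM over all libraries.

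A principal component analysis of the within-group values placed 60.2% of the members' variance on the first component, 18.4% on the second and 7.58% on the third. Among the 80 members with a mean of at least 5 CPM, the median correlation of a member with the mean of the others was 0.555, and 69 of the 80 correlations were above 0. Rpl23 (0.962) and Rpl5 (0.942) followed the mean most closely. Rpl7l1, a paralog that functions in ribosome assembly, ran opposite to it (-0.694), as did Rpl6 (-0.468) and Rps20 (-0.40).

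The genes outside the family whose within-group values were most like the members' mean were Naca (0.916), the nascent polypeptide-associated complex subunit, and the elongation factor Eef1b2 (0.911). Amot, Zfp687, Mfap1a, Mrps35, Casc3, Tubb2a, Rasl11b and Pacsin2 followed, with correlations of 0.871 to 0.901 over the 22 libraries. They are given as a description.

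**Figure D2:**
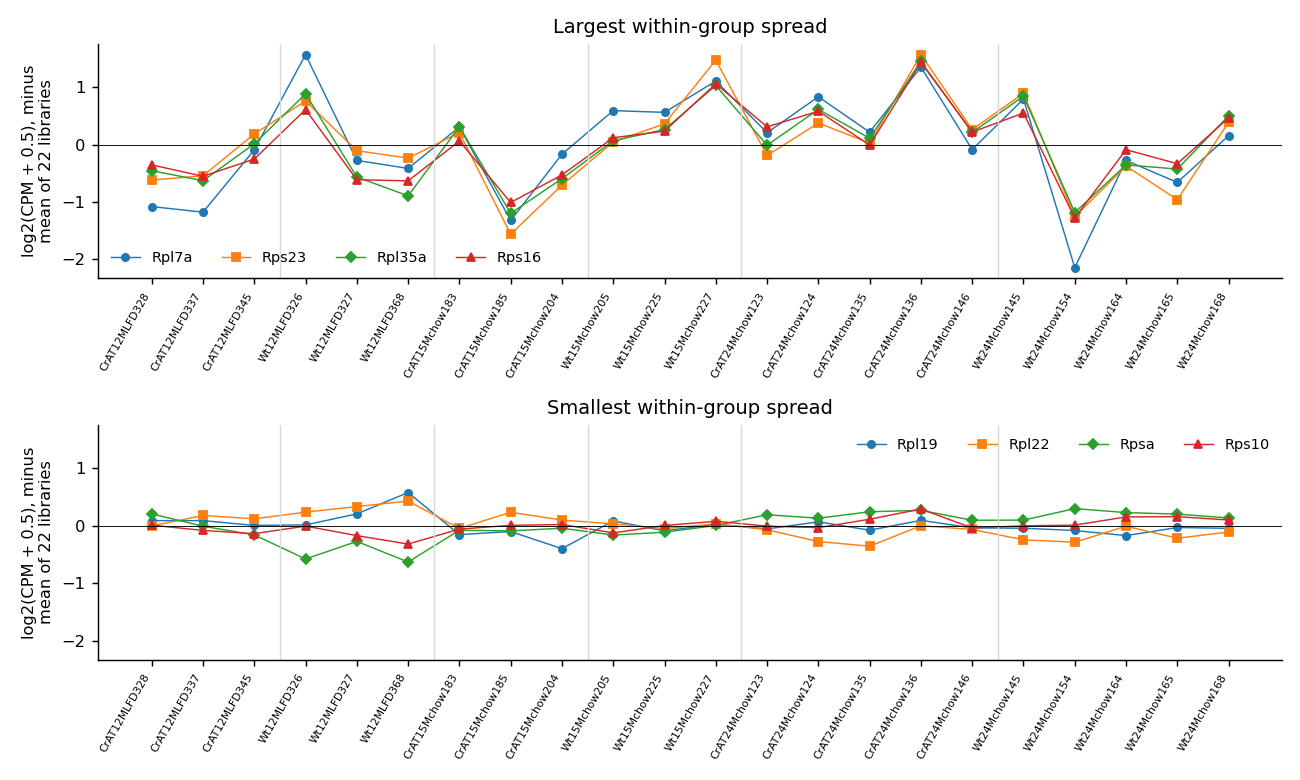
Log2(CPM + 0.5) of the members with the largest (upper panel) and smallest (lower panel) within-group SD in each of 22 libraries, minus the mean of the gene over the libraries; grey lines separate the 6 groups. Rpl7a, Rps23, Rpl35a and Rps16 move together by library, with peaks in Wt12MLFD326, Wt15Mchow227 and CrAT24Mchow136 and troughs in Wt24Mchow154 and CrAT15Mchow185.

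At 12 months, 14 ribosomal protein genes rose and 2 fell in Pt-CrAT cortex by edgeR's quasi-likelihood test (adjusted p under 0.05 over all genes tested). With both directions pooled, 19.3% of the 83 members were called, against 16.4% of all 15064 genes, which is near the background. By direction the calls of all genes were near even, 1267 higher (8.41%) and 1197 lower (7.95%), while most calls among the members were higher. The members' median log2 fold change was 0.09 (0.07 to 0.21 with 1 library left out, the highest without Wt12MLFD327), and that of all genes 0.00. Of the 46 large-subunit genes 10 rose and none fell. Of the 31 small-subunit genes 4 rose and 1 fell, and of the 6 paralogs 1 fell.

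These calls rested on few libraries. No member was called without CrAT12MLFD328, and 4 (Rpl35, Rpl36, Rps14 and Rps15) were called without CrAT12MLFD337 and likewise without Wt12MLFD326. Fitted on the 6 libraries of 12 months alone, none of the 83 was called, and 1 gene of all tested was. Scaled by total count, 7 members rose and 4 fell, and the median of all genes moved to -0.12 and that of the members to -0.05.

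**Figure D3:**
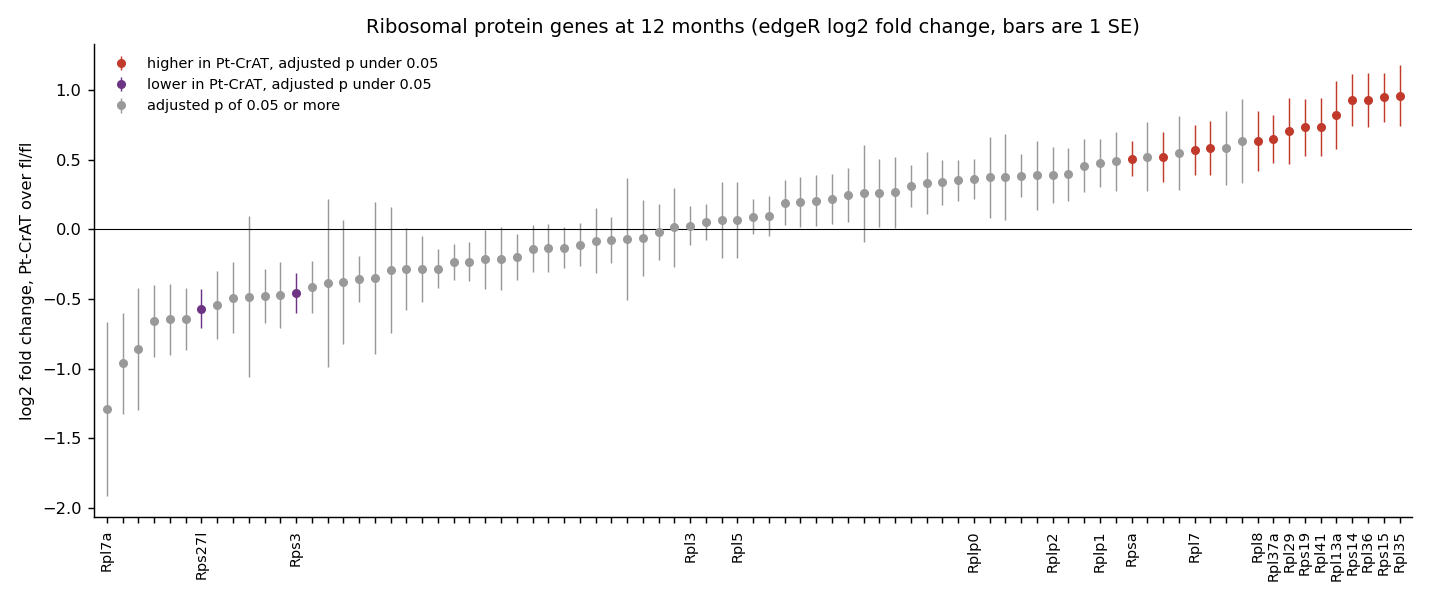
Log2 fold change of each of the 83 members at 12 months, Pt-CrAT over fl/fl, in rising order with bars of 1 SE; names are given for 20 members described in the text. The 14 members called higher are red and the 2 called lower (Rps27l and Rps3) purple.

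Rps15, a protein of the small-subunit head, had the smallest adjusted p. It stood at 1096, 961 and 779 CPM in Pt-CrAT libraries, against 378, 595 and 496 CPM in fl/fl libraries. All 3 Pt-CrAT libraries lay above all 3 fl/fl libraries. The means were 945 ± 159 and 489 ± 108 CPM in Pt-CrAT and fl/fl (SD, n = 3 each; log2 fold change 0.95, SE 0.18, edgeR adjusted p = 0.00517). Over the alternatives its adjusted p ran between 4.29e-05 and 0.16, and without CrAT12MLFD328 it was 0.0505 at a log2 fold change of 0.84. The gene (ENSMUSG00000063457) lies on GRCm38 chromosome 10, 80292453 to 80294114, plus strand.

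Rps14, a small-subunit protein whose human gene lies in the interval lost in the 5q- syndrome, stood at 2702, 2230 and 1714 CPM in Pt-CrAT and 1141, 1373 and 977 CPM in fl/fl. The groups did not overlap (log2 fold change 0.93, SE 0.18, edgeR adjusted p = 0.00633; range over the alternatives 0.000144 to 0.16).

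Rpl36, a large-subunit protein, stood at 843, 861 and 600 CPM in Pt-CrAT and 331, 489 and 390 CPM in fl/fl (log2 fold change 0.93, SE 0.19, edgeR adjusted p = 0.00725; range 0.000284 to 0.185). CrAT12MLFD345, the most deeply sequenced library, was the lowest of its group and still above every fl/fl library.

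Rpl35, which lies at the mouth of the exit tunnel, stood at 33.8, 27.9 and 19.3 CPM in Pt-CrAT and 16.9, 12.0 and 12.6 CPM in fl/fl (log2 fold change 0.96, SE 0.22, edgeR adjusted p = 0.00953; range 0.00143 to 0.158). It lies on chromosome 2, 39001580 to 39005624, minus strand.

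The other 10 members that rose had log2 fold changes of 0.51 to 0.82. Rpl13a, a large-subunit protein whose introns hold small nucleolar RNAs, stood at 687, 585 and 495 CPM in Pt-CrAT and 270, 413 and 316 CPM in fl/fl (0.82, SE 0.24). Rps19, mutated in human Diamond-Blackfan anaemia, stood at 1765, 1828 and 1377 CPM in Pt-CrAT and 644, 1303 and 1047 CPM in fl/fl (0.73, SE 0.20). In both genes the lowest library was Wt12MLFD326, and in both the groups did not overlap. Rpl41, which encodes a very short peptide (0.73), and Rpl29 (0.70) also rose. Rpl37a, Rpl8, Rpl31, Rpl7 and Rpsa were among the others, with Rpsa at 472 ± 60.7 CPM in Pt-CrAT and 332 ± 46.0 CPM in fl/fl (0.51, SE 0.13).

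The 2 members that fell were Rps27l and Rps3. Rps27l, a p53-responsive paralog of Rps27, stood at 73.9, 75.3 and 83.04 CPM in Pt-CrAT and 135.4, 106.1 and 103.6 CPM in fl/fl (log2 fold change -0.57, SE 0.14, edgeR adjusted p = 0.0131). Rps3, a protein of the messenger entry channel with a repair role outside the ribosome, stood at 325.7, 363.1 and 411.2 CPM in Pt-CrAT and 544.0, 478.1 and 487.6 CPM in fl/fl (-0.46, SE 0.15, edgeR adjusted p = 0.0357). In both genes the groups did not overlap, and Wt12MLFD326 was the highest library.

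Other fixed members did not pass at 12 months. The stalk genes had log2 fold changes of 0.36 (Rplp0), 0.48 (Rplp1) and 0.39 (Rplp2), with edgeR adjusted p-values of 0.0831, 0.0591 and 0.174 in this order. The Mdm2-binding proteins Rpl5 and Rpl11 had values of 0.07 and -0.08, and Rpl3, of the peptidyl transferase centre, 0.03. Rpl7a had the lowest value of all members, -1.29, with an SE of 0.62. Over all members, 21 had every Pt-CrAT library above every fl/fl library, where 16.3% of all genes did, and 8 had every one below, where 13.8% of all genes did.

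**Figure D4:**
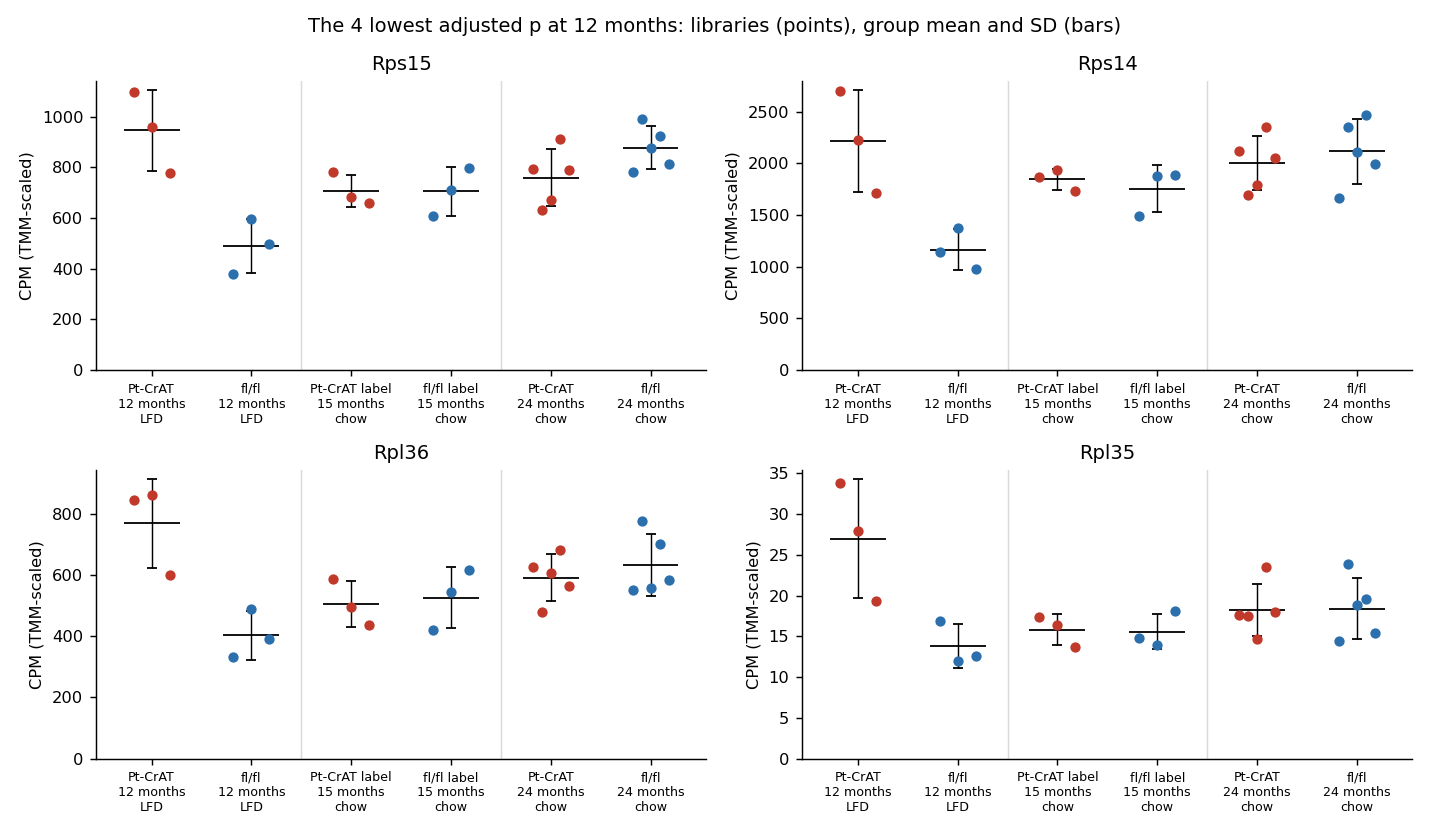
TMM-scaled CPM of Rps15, Rps14, Rpl36 and Rpl35 in each library (points) by group, with mean and SD; axes start at 0. At 12 months all Pt-CrAT libraries lie above all fl/fl libraries, and at 15 and 24 months the groups overlap.

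GC content moved with the 12-month differences. Over the last 500 transcript bases the median GC content was 54.4% in the 14 members that rose, 44.3% in the 2 that fell and 49.2% in the 67 not called. The Spearman correlation of GC content with the log2 fold change was 0.232 over the 83 members and 0.27 over 15035 genes, as descriptions across genes. Such a relation was not particular to 12 months. Over the members it was 0.245 at 15 months by label, -0.263 at 24 months and 0.285 for age in fl/fl, where no member was called. Over all genes it was 0.136, -0.202 and 0.0606 in this order. Within libraries, the correlation of GC content with a gene's level relative to its mean was 0.302 to 0.349 in Pt-CrAT and -0.216 to 0.179 in fl/fl at 12 months. With this trend removed from each library, an alternative chosen after seeing the data, 8 members rose and 5 fell, 10 of the 16 original calls remained, and the members' median was 0.02. Rps15 then stood at 0.66 and Rps14 at 0.71, and Rpl35 lost its call (0.66, adjusted p = 0.0528).

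Other signals also differed between the 12-month libraries. The 4 nuclear transcripts Malat1, Neat1, Meg3 and Kcnq1ot1 all rose (median log2 fold change 0.80), with a summed level of 3845 to 4958 CPM in Pt-CrAT and 1841 to 3215 CPM in fl/fl. Of 8 adipocyte markers 7 passed the filter on low counts, and these summed to 352.6 to 881.4 CPM in Pt-CrAT and 133.4 to 275.5 CPM in fl/fl. Of the 8 listed, Lep had no count in 9 of the 22 libraries, Retn in 2 and Cidec in 1. Proximal tubule markers summed to 61250 to 74470 CPM in Pt-CrAT and 51760 to 66530 CPM in fl/fl. Most of these sums was Kap, which averaged 50070 CPM in Pt-CrAT and 41190 CPM in fl/fl. The part of these signals in the ribosomal protein differences was not tested.

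Genes that work beside the ribosomal proteins went both ways at 12 months. Their counts stand against a background of 8.41% higher and 7.95% lower over all genes, and no test of a list was run. The calls beneath them are few without single libraries: 2464 genes were called in all, against 53 without CrAT12MLFD328, 391 without CrAT12MLFD337, 408 without Wt12MLFD326 and 1 in a fit of the 12-month libraries alone.

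Of 54 ribosome assembly genes 13 rose and 3 fell (median log2 fold change 0.20), among them the pre-ribosomal RNA processing factors Rrp12 (1.10, SE 0.22), Ppan (0.76) and Rrp1 (0.74) and the helicase Ddx21 (0.91, SE 0.18). Of 35 initiation factors 9 rose and 3 fell (median 0.12), with the eIF3 subunits Eif3d (0.78) and Eif3c (0.66), the subunit-joining factor Eif5b (0.63) and the exchange factor subunit Eif2b4 (0.79) among those that rose.

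Of 11 genes listed as elongation factors or related to them, 2 rose, Eef2 (0.59), which drives translocation, and Eef1d (0.70). In the same list 3 fell, among them Eef1e1 (-1.28, SE 0.28) and Eif5a (-0.52). The list also holds Eef2k, Gspt1 and Etf1, which are not elongation factors. Of 25 other TOP messengers 6 rose and 2 fell (median 0.16), including Eif3k (0.91) and Eif3f (0.61). Fau, whose product holds a subunit protein made as a fusion, also rose (0.65, SE 0.20). Rack1, a scaffold on the small subunit, stood at -0.08 and did not pass (edgeR adjusted p = 0.689).

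Of 25 growth control genes 3 rose and 2 fell (median -0.06), with the RNA-binding protein Larp4 at 1.06, the S6 kinase Rps6kb2 at 0.61, the mTOR partner Mlst8 at 0.54 and the stress-induced mTORC1 inhibitor Sesn1 at -1.11. Of 19 short messengers outside the family 3 rose and none fell (median -0.17). The short messengers with a rise were the mitochondrial proteins Romo1 (0.74), Uqcr11 (0.58) and Atp5j2 (0.49). The median over all genes was 0.00, and some genes are in more than 1 list.

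At 15 months no ribosomal protein gene was called between the labelled genotypes, nor was any other gene (0% of 15064). Among the members 8 had an unadjusted p under 0.05 in edgeR, and DESeq2 and limma-voom called 0. Their median log2 fold change was -0.16, against 0.01 for all genes, and 30 of the 83 values were above 0. With 1 library left out the members' median lay between -0.20 and -0.03, the value nearest 0 without Wt15Mchow227. Among the members with the smallest p were Rps27rt (0.62, SE 0.27), Rps24 (-0.52, SE 0.24), Rps23 (-1.29, SE 0.59), Rps16 (-0.97, SE 0.46) and Rpl17 (-0.50, SE 0.24), each with an edgeR adjusted p of 0.581.

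Rps23 stood at 46.6, 13.3 and 24.5 CPM in libraries labelled Pt-CrAT and 41.5, 51.8 and 112.4 CPM in those labelled fl/fl. The groups overlapped, with Wt15Mchow227 the highest and CrAT15Mchow185 the lowest. Without Wt15Mchow227 the log2 fold change of Rps23 was -0.73 and that of Rps16 -0.61, and without CrAT15Mchow204 that of Rps27rt was 0.41. Over all members, 7 had every library labelled Pt-CrAT above every one labelled fl/fl (11.6% of all genes) and 15 had every one below (12.7% of all genes). The direction follows labels against which Crat ran.

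At 24 months, with 5 animals a group, no member was called and again no other gene (0%). In edgeR 1 member had an unadjusted p under 0.05, and DESeq2 and limma-voom called 0 members. DESeq2 gave no adjusted p for Rpl3l, Rps4x, Rps16, Rps3a1 and Rps18, so it could not have called them. The members' median log2 fold change was 0.08, against 0.02 for all genes, with 59 of 83 values above 0. It was -0.02 without CrAT24Mchow136, -0.07 without both CrAT24Mchow123 and CrAT24Mchow136, and 0.04 to 0.14 with any other single library left out. Scaled by total count it was 0.21, with the median of all genes moved to 0.14. No member had its Pt-CrAT and fl/fl libraries fully apart, where 0.737% of all genes had every Pt-CrAT library above and 0.797% every one below.

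The member with the smallest p at 24 months was the paralog Rpl3l (-0.73, SE 0.29, edgeR adjusted p = 0.468). It stood at 1.64, 1.74, 4.56, 1.13 and 2.87 CPM in Pt-CrAT and 3.84, 4.82, 4.15, 4.16 and 3.09 CPM in fl/fl. The groups overlapped, and the lowest values were those of CrAT24Mchow136 and CrAT24Mchow123. Rps4x (0.39, SE 0.21), Rps16 (0.61, SE 0.35), Rps3a1 (0.36, SE 0.21), Rpl32 (0.18, SE 0.11) and Rps18 (0.37, SE 0.23) came next. Several of these values rest on CrAT24Mchow136: without it Rps4x stood at 0.12, Rps16 at 0.29, Rps3a1 at 0.14 and Rps18 at 0.09. Without CrAT24Mchow123 Rpl32 stood at 0.11, without Wt24Mchow154 Rps18 at 0.23, and without CrAT24Mchow135 Rpl3l at -1.12.

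The 4 genes with the smallest adjusted p at 12 months showed no such difference later. Rps15 averaged 707 ± 64.0 CPM in libraries labelled Pt-CrAT and 705 ± 96.0 CPM in those labelled fl/fl at 15 months (SD, n = 3 each), and 759 ± 112 CPM in Pt-CrAT and 877 ± 85.2 CPM in fl/fl at 24 months (SD, n = 5 each). Its log2 fold changes there were 0.00 and -0.21. Those of Rps14 were 0.07 and -0.08, of Rpl36 -0.06 and -0.10, and of Rpl35 0.02 and -0.01 at 15 and 24 months. The 15-month values follow the labels.

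Whether the genotype difference varied among the 3 settings was tested with 2 degrees of freedom, and 3 members passed, against 5.07% of all genes: Rps15 (edgeR adjusted p = 0.02), Rpl36 (0.0345) and Rps14 (0.0346). None of the 3 was called without CrAT12MLFD328, without CrAT12MLFD337 or with the GC trend removed. Rps15 alone was called without Wt12MLFD326, CrAT24Mchow124, Wt24Mchow154 or Wt24Mchow165. More members were called without Wt24Mchow145 (12), CrAT12MLFD345 (10), Wt12MLFD327 (6) or Wt15Mchow205 (5).

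Averaged over the settings, no member was called by edgeR (12 at an unadjusted p under 0.05; background 0.0266%), limma-voom called 0 and DESeq2 called 1, Rps27l (-0.27 in DESeq2, against -0.26 in edgeR with SE 0.07).

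**Figure D5:**
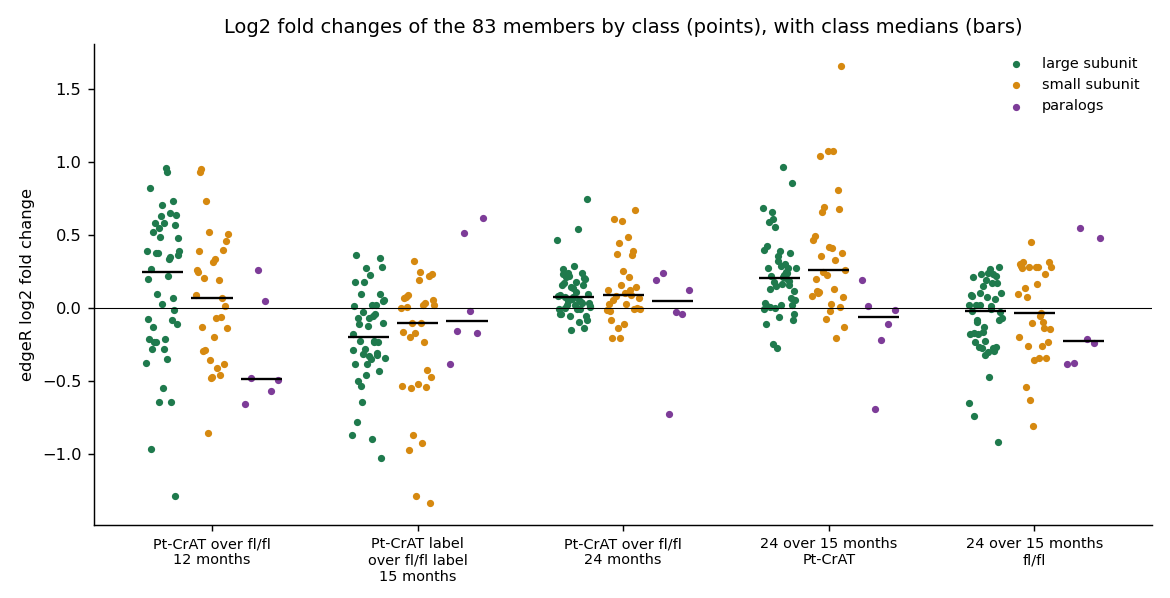
Log2 fold changes of the 83 members in 5 comparisons, as points by class (large subunit, small subunit, paralogs) with class medians as bars. The medians of the large-subunit genes are 0.24 at 12 months, -0.20 at 15 months and 0.07 at 24 months for genotype, and 0.21 in Pt-CrAT and -0.02 in fl/fl for age.

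Between 24 and 15 months on chow, 1 member rose in Pt-CrAT, where 11.3% of all genes were called, and none in fl/fl, where 1.3% were. In Pt-CrAT the background was 5.61% upward and 5.71% downward. The 15-month libraries in this comparison are those whose Crat level ran against their label. The members' median log2 fold change, 24 over 15 months, was 0.21 in Pt-CrAT and -0.03 in fl/fl, against 0.04 and 0.02 for all genes. The value in Pt-CrAT was 0.09 without CrAT24Mchow136, 0.05 without both CrAT24Mchow123 and CrAT24Mchow136, and 0.19 to 0.27 with any other single library left out. The value in fl/fl ran between -0.13 without Wt15Mchow205 and 0.12 without Wt15Mchow227, so that its sign is not settled.

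Rps3a1, a small-subunit protein of the platform, was the one called. It stood at 58.5, 66.2, 73.8, 117.1 and 60.7 CPM at 24 months and 58.8, 32.0 and 38.5 CPM at 15 months in Pt-CrAT. The ranges overlapped, with CrAT24Mchow136 far above the rest. The means were 75.3 ± 24.1 CPM (SD, n = 5) at 24 months and 43.1 ± 14.0 CPM (SD, n = 3) at 15 months (log2 fold change 0.81, SE 0.25, edgeR adjusted p = 0.0411; range over the alternatives 0.0158 to 0.214). It was not called without CrAT24Mchow136 (adjusted p = 0.11), CrAT15Mchow185 (0.214) or CrAT15Mchow204 (0.173). Without CrAT15Mchow183 4 members were called, and without CrAT24Mchow135 or CrAT24Mchow146 2 each. Scaled by total count, 22 members rose with age in Pt-CrAT, with the median of all genes moved to 0.29 and that of the members to 0.46.

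The next members by p in Pt-CrAT did not pass: Rps27 (0.41, SE 0.15), Rps6 (1.66, SE 0.59), Rps12 (0.49, SE 0.18), Rpl17 (0.59, SE 0.22) and Rps4x (0.68, SE 0.25), with edgeR adjusted p-values of 0.0686 to 0.077. Without CrAT24Mchow136 Rps27 stood at 0.26, Rpl17 at 0.38 and Rps4x at 0.41. Rps6 rests on few counts, with 1.11, 2.11, 1.70, 2.32 and 1.65 CPM at 24 months and 0.903, 0.142 and 0.644 CPM at 15 months. In all, 7 members had every 24-month library above every 15-month library in Pt-CrAT (10.5% of all genes) and 0 had every one below (11.3% of all genes).

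In fl/fl the edgeR test called 0 members, with 5 at an unadjusted p under 0.05, and DESeq2 and limma-voom called 0. The smallest p belonged to Rpl3 (-0.32, SE 0.13) and Rpsa (0.28, SE 0.11), with edgeR adjusted p-values of 0.15 and 0.159. Rpl3 stood at 191 ± 14.7 CPM at 24 months (SD, n = 5) and 239 ± 26.5 CPM at 15 months (SD, n = 3), without overlap. There 5 members had every 24-month library above every 15-month library (8.7% of all genes) and 1, Rpl3, had every one below (8.26%).

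The difference between the age effects, Pt-CrAT minus fl/fl, was called in 0 members (17 at an unadjusted p under 0.05; 0% of all genes called; DESeq2 and limma-voom called 0). Its median over the members was 0.19. It was 0.09 without CrAT24Mchow136, 0.10 without Wt15Mchow227 and 0.03 without both CrAT24Mchow123 and CrAT24Mchow136. The smallest p belonged to Rps16 (1.58, SE 0.57, edgeR adjusted p = 0.29).

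Within a library, the balance of a paralog and its partner gives a value in which the library scaling cancels, apart from the 0.5 CPM added before the log. The log2 difference, Rps27l minus Rps27, was -2.55, -2.37 and -2.0 in Pt-CrAT and -1.38, -1.51 and -1.33 in fl/fl at 12 months, so the groups did not overlap. The means were -2.31 ± 0.281 and -1.41 ± 0.0938 in Pt-CrAT and fl/fl (SD, n = 3 each). At 15 months they were -1.83 ± 0.142 in libraries labelled Pt-CrAT and -1.77 ± 0.0547 in those labelled fl/fl (SD, n = 3 each). At 24 months they were -2.34 ± 0.286 in Pt-CrAT and -2.30 ± 0.192 in fl/fl (SD, n = 5 each). The 12-month fl/fl libraries had the 3 highest values of all 22. These balances carry no test of their own.

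The balance of Rplp1 over Rplp2 averaged higher in Pt-CrAT at each setting, but the groups overlapped each time. Its means were 2.14 ± 0.253 in Pt-CrAT and 2.05 ± 0.584 in fl/fl at 12 months. They were 1.705 ± 0.18 and 1.33 ± 0.249 by label at 15 months, and 1.48 ± 0.225 and 1.47 ± 0.181 at 24 months. The balance of Rps27l over Rps27, given above, averaged lower in Pt-CrAT at each setting, by label at 15 months, but the groups overlapped at 15 and 24 months. The remaining balances did not keep 1 direction over the settings. That of Rpl22l1, whose product can take the place of Rpl22 in the large subunit, over Rpl22 averaged -5.16 ± 0.371 in Pt-CrAT and -4.72 ± 0.427 in fl/fl at 12 months (SD, n = 3 each). At 15 months it averaged -4.92 ± 0.344 in libraries labelled Pt-CrAT and -4.45 ± 0.0856 in those labelled fl/fl (SD, n = 3 each), and at 24 months -4.52 ± 0.428 in Pt-CrAT and -4.69 ± 0.414 in fl/fl (SD, n = 5 each).

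The balance of Rpl3l, best known from striated muscle, over Rpl3 was lower in Pt-CrAT at 24 months alone. It averaged -5.35 ± 0.57 in Pt-CrAT and -5.53 ± 0.109 in fl/fl at 12 months, -5.67 ± 0.379 in libraries labelled Pt-CrAT and -6.21 ± 0.096 in those labelled fl/fl at 15 months, and -6.29 ± 0.81 in Pt-CrAT and -5.41 ± 0.299 in fl/fl at 24 months. Rpl3l rests on few counts.

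The balance of Rpl36al over Rpl36a was lower in Pt-CrAT at 12 months alone. It averaged -5.08 ± 0.106 in Pt-CrAT and -4.39 ± 0.311 in fl/fl at 12 months, -5.04 ± 0.337 in libraries labelled Pt-CrAT and -5.14 ± 0.252 in those labelled fl/fl at 15 months, and -5.31 ± 0.328 in Pt-CrAT and -5.54 ± 0.25 in fl/fl at 24 months.

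The balance of Rpl13a over Rpl13, which are unrelated in sequence despite their names, was higher in Pt-CrAT at 12 months and lower at the later settings. At 12 months its values were -0.44, -1.07 and -0.96 in Pt-CrAT and -1.22, -1.59 and -2.46 in fl/fl, without overlap, with means of -0.82 ± 0.339 in Pt-CrAT and -1.76 ± 0.633 in fl/fl. It averaged -1.33 ± 0.395 in libraries labelled Pt-CrAT and -0.85 ± 0.604 in those labelled fl/fl at 15 months, and -0.81 ± 0.407 in Pt-CrAT and -0.67 ± 0.22 in fl/fl at 24 months, where the groups overlapped.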

How the data were processed

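The values tested are raw read counts of 3′ tags for each gene, as the authors deposited them. The submitters' processing notes name GRCm38, R 3.4.3 and DESeq2 1.18.1. Alignment, counting, strand setting and the treatment of multiple matches were not given in the sources used here. The authors' normalized signal, each count divided by a size factor, supplied the gene names and a check of the size factors. Members and lists were chosen with earlier results of these data known.

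All 22 libraries entered 1 edgeR 4.0.16 fit (R 4.3.3, TMM, filterByExpr, robust quasi-likelihood F test, 16 residual degrees of freedom), with Benjamini-Hochberg adjustment over 15064 genes and a threshold of 0.05. The biological coefficient of variation was 20.5%. A log2 fold change is the edgeR value, and its SE comes from it and F. DESeq2 1.42.0 and limma-voom (limma 3.58.1) were alternatives. The script was tested on simulated data. Levels are TMM-scaled CPM, and logs of levels add 0.5 CPM. GENCODE M21 gave coordinates and sequence sharing.

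Named genes are a fixed set of members, up to 8 called members a direction and contrast with at least 5 CPM (or, where fewer than 5 passed, the 6 with the smallest p), the 4 most and 4 least variable members, and up to 4 genes a list by p. Rps25, Rpl23, Rps20, Rpl6, Rpl31, Rpl7, Rpl8 and Rpl37a were named after their values were seen. A few genes that the rule names are not reported here. The labels do not say whether animals shared a litter or day. The p-values set a difference against the spread between animals within the 6 groups and make no allowance for such sharing. Counts carry no molecular identifiers, so depth sets counting error only.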

Additional observations from a re-analysis of the deposited data

Results flagged for a closer look

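In CrAT24Mchow136, Rps23 stood at 120 CPM where the other 24-month Pt-CrAT libraries held 35.2 to 52.3 CPM, and Rps3a1 at 117 CPM where the others held 58.5 to 73.8 CPM. Both stand out by a gap test within that group of 5, which chance alone sets off in about 1 of 20 groups. That rate is for a single gene, and more were looked at. Members that were not flagged lay as far apart in this library, such as Rps18 (482.6 CPM, the others 222.7 to 246.9 CPM) and Rps27a (268.8 CPM, the others 100.7 to 119.7 CPM). CrAT24Mchow136 was also the highest of all 22 libraries for Rps16, Rpl10, Rps2, Rps27a and Rpl23, among others. It was the lowest for Rps20, Rpl3l and Rpl7l1. The library is 1 of the 2 with little Kap (0.342% of counts).

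The genotype difference varied among the 3 settings for Rps15 (edgeR adjusted p = 0.02), Rpl36 (0.0345) and Rps14 (0.0346). In each, the difference was large at 12 months (log2 fold changes 0.95, 0.93 and 0.93 in this order) and near or below 0 at 15 months (0.00, -0.06 and 0.07) and 24 months (-0.21, -0.10 and -0.08). The 15-month values follow labels against which Crat ran.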

How the results depend on the processing

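No paired analysis was possible because the groups share no replicate numbers. The number of members called at 12 months, 16, was 0 with only the groups compared in the fit, 0 without Wt12MLFD326 and CrAT12MLFD328, and between 0 and 23 with 1 library left out. The number whose genotype difference varied among the settings, 3, was 6 with total count scaling, 12 with the DESeq2 test, 0 with the GC trend removed, 0 without Wt12MLFD326 and CrAT12MLFD328, 1 without CrAT24Mchow123 and CrAT24Mchow136, and between 0 and 12 with 1 library left out. The number called for age in Pt-CrAT, 1, was 22 with total count scaling, 5 with the DESeq2 test, 3 with the GC trend removed, 0 without CrAT24Mchow123 and CrAT24Mchow136, and between 0 and 4 with 1 library left out. With only the groups compared it was again 1, but the member called was not Rps3a1. For the mean over settings, 0, the DESeq2 test called 1. The counts of 0 at 15 and 24 months, for age in fl/fl and for the difference between age effects held under each alternative run. At 24 months, though, DESeq2 gave several members no adjusted p and could not have called them. On the TMM-scaled library size the members' share was 4.47% in Pt-CrAT at 12 months (3.88% of counts) and 3.84% in fl/fl at 24 months (3.97% of counts). With 2 CPM in place of 0.5 CPM added, which like the GC correction was chosen after seeing the data, the balance of Rpl3l and Rpl3 was -5.24 in libraries labelled Pt-CrAT at 15 months, and -5.2, -5.67 and -5.01 in fl/fl at 12, 15 and 24 months (with 0.5 CPM -5.67, -5.53, -6.21 and -5.41). No named gene changed sign past the 0.05 threshold. Medians of the members did change sign. With total count scaling that at 12 months moved from 0.09 to -0.05 and that for age in fl/fl from -0.03 to 0.03. With the GC trend removed that of the mean over settings moved from 0.0183 to -0.00157. The cause of these moves was not tested. A fit with only the groups compared could not be had for the mean over settings and for the variation among settings, since both use all 6 groups. Sequence shared with pseudogenes and low counts (Rps6, Rpl3l, Rps27rt) limit single members.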
